A study of Mus musculus with 6 samples.

Results

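Genes of the epithelial-mesenchymal transition were read on 6 mouse mammary gland arrays: 5 epithelial genes (Cdh1, Cldn3, Cldn7, Ocln and Epcam) and 5 mesenchymal genes (Snai1, Snai2, Zeb1, Twist1 and Vim). They were found by the gene name that the array design gives each probe, which yielded 10 genes with 12 probes and 21 spots, of 34821 gene names and 55681 probes. All samples were labelled as cells of virgin female mice. The first pair of arrays held the CD24+CD29hi fraction, labelled MaSC (mammary stem cells), of Dll1-mCherry reporter mice of strain C57/B6:Dll1-mCherry, sorted into a mCherry-positive, Dll1-high part and a Dll1-low part, with 1 array each. The other 4 held F4/80+ macrophages of the gland, 2 from mice with a conditional knockout (KO) of Dll1 and 2 from their wild type (WT) littermates. Dll1 encodes a Notch ligand. The labels name neither the Cre driver nor the cells or exons that lose Dll1, nor do they say whether replicates were separate animals or pools, so what the p-values measure is only the spread between these samples, which may be technical. Each sample was labelled with Cy5 and hybridised with universal mouse reference RNA in Cy3, which pools 11 cell lines. Every level below is a log2 ratio of sample over that reference, and levels are compared between arrays for 1 probe at a time, never between probes.

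Epithelial cells adhere through E-cadherin, encoded by Cdh1, and seal their tight junctions with claudins and occludin, while Epcam is a surface adhesion protein of most simple epithelia. Snai1, Snai2, Zeb1 and Twist1 are transcription factors that can repress such genes in the epithelial-mesenchymal transition, and Vim encodes the intermediate filament of mesenchymal cells. In the mammary gland the basal, myoepithelial layer shares contractile and matrix genes with mesenchyme and is known for Snai2, whereas macrophages are haematopoietic cells that carry vimentin.

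Factors of the Snai and Zeb families bind the E-box CAGGTG, read as CACCTG on the other strand. The promoter table of RefSeq (build GRCm38.p6), which covers 250 bases before to 50 bases after a start, held windows for 7 of the 10 genes. These letters, on either strand, occurred at least once in 20.2% and at least 2 times in 2.88% of all 32851 windows of 300 bases. The Epcam window held 2 matches, at -187 and -19 from the start, the Snai1 window held 1, at -126, and those of Vim and Twist1 held 0. Cldn3 had 1 match, 32 bases into the transcript counting the start as base 1. Cldn7 and Ocln each have 2 annotated starts, with 0 and 2 matches for Cldn7 and 1 and 2 for Ocln. The Ocln windows overlap and share a match, so their counts cannot be added. The 250 upstream bases of Epcam and Vim, which differed in opposite directions between the cell types, and of Snai1, itself one of these factors, are shown 5′ to 3′ with the E-box letters in capitals. They were picked after their matches and values were known, and a match is a description of the letters only.
Epcam, chr17:87635729-87635978, plus strand: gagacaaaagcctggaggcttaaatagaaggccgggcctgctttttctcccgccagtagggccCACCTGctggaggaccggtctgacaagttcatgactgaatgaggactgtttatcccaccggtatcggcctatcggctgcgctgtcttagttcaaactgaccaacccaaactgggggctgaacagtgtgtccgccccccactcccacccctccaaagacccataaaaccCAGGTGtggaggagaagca
Vim, chr2:13574061-13574310, plus strand: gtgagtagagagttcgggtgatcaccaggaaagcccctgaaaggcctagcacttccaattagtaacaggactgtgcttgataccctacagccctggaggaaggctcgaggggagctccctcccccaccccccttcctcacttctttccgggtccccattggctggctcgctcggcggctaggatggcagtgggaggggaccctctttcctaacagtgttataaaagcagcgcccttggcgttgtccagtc
Snai1, chr2:167537945-167538194, plus strand: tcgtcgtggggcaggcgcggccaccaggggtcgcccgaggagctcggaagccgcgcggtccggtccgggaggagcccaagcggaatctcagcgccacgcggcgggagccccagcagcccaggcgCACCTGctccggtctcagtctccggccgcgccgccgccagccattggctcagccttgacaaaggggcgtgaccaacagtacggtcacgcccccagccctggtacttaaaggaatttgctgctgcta

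Marker genes were read against the labels before the members. The median log2 ratio of 11 basal markers was 3.84 and 3.81 on the Dll1-high and Dll1-low arrays and 0.26 to 0.74 on the macrophage arrays, while Adgre1, which encodes F4/80, read -2.56 and -2.46 on the former and 1.85 to 4.56 on the latter. WT replicate 1 stood apart from the other macrophage arrays: its 16 macrophage markers had the lowest median, 1.94 against 2.78 to 2.99, and its 12 fibroblast markers the highest, 0.24 against -1.26 to -0.86. Its 14 luminal markers had a median of 1.30 against 0.70 to 0.90 on the others, with single markers both above and below the other arrays. Sample signal was well above background for 86.0% and 88.1% of spots on the CD24+CD29hi arrays and for 47.4% to 71.9% on the macrophage arrays, so dim genes were measured less well in macrophages. Both CD24+CD29hi arrays lay on 1 slide and the 4 macrophage arrays on another, and on the macrophage slide KO lay in column 4 and WT in column 3. The CD24+CD29hi cells also came from reporter mice and the macrophages from conditional KO mice and their littermates. Cell type, mouse line, slide, scan and version of the scanner software therefore cannot be told apart, nor can genotype and slide column. Dll1 itself read 3.94 in Dll1-high and 3.26 in Dll1-low cells on probe A_51_P306017. On the macrophage arrays the KO values of that probe were 0.80 (replicate 1) and 2.25 (replicate 2) and the WT values 0.78 and 3.24, so the macrophage replicates of each genotype lay farther apart than the genotypes. Another Dll1 probe, A_55_P1986900, hardly parted the reporter states, at 0.38 and 0.24, and read -0.03 to 0.04 on the macrophage arrays.

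**Figure D1:**
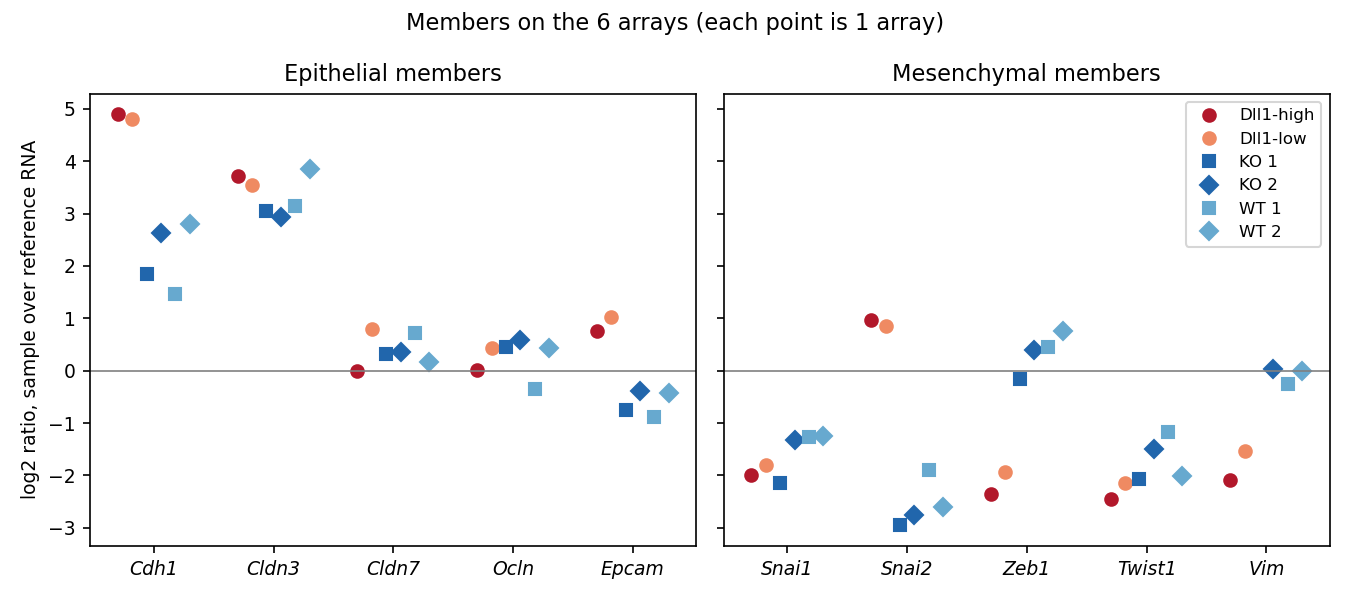
Log2 ratio of sample over reference RNA (y axis) for the 5 epithelial genes (left) and the 5 mesenchymal genes (right), with 1 point per array. Red and orange circles are the Dll1-high and Dll1-low CD24+CD29hi cells, dark blue symbols KO and light blue symbols WT macrophages, with squares for replicate 1 and diamonds for replicate 2. Cdh1, Epcam and Snai2 lie higher on both CD24+CD29hi arrays than on all 4 macrophage arrays, and Zeb1, Twist1 and Vim lie lower, with Vim missing on KO replicate 1.

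The first comparison set the 2 CD24+CD29hi arrays against the 4 macrophage arrays. It was fitted with limma over 31241 genes, of which 9.20% passed an adjusted p of 0.05 in either direction, 4.20% as higher and 5.00% as lower in CD24+CD29hi cells. Of the epithelial genes, 2 of 5 were higher and 0 lower, and of the mesenchymal genes, 1 was higher and 2 lower, so 5 of 10 members passed. The median difference was 0.38 over the epithelial and -0.62 over the mesenchymal genes, against -0.04 over all genes tested. The 2 CD24+CD29hi arrays are 2 reporter states rather than replicates, and fitting each of the 4 groups with its own mean kept the sizes but left 92 genes and 0 members past the threshold.

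Among the epithelial genes, Cdh1 (probe A_51_P137336 at chr8:109193812-109193871, mm9 as in the file headers; no exon annotation of that build was used here) read 4.90 in Dll1-high and 4.81 in Dll1-low cells, 1.85 and 2.62 in KO and 1.47 and 2.80 in WT macrophages. Both CD24+CD29hi arrays lay above every macrophage array. Its 10 spots per array gave an SD of 0.137 to 0.150 on the CD24+CD29hi and of 0.196 to 0.458 on the macrophage arrays. The difference was 2.67 (SE 0.41, 95% interval 1.66 to 3.68, limma adjusted p = 0.015), or 6.36-fold. The reference signal behind this probe was dim, with spot signals of 65 to 71.5 on the macrophage arrays and 150.75 and 156.5 on the others. In the reference channel alone the same contrast was -0.24. Such single-channel contrasts, here and below, were rebuilt from the loess-normalized ratio and the mean signal of both dyes. They carry part of the loess correction and are not independent of the ratio. The 15 alternatives, here and for the other calls, were not separate checks. No called gene has a second probe, so averaging probes could not change its difference, nor could dropping the filter. The value table repeated the processed signals. The call was kept under 9 of 15 alternatives and lost under 6, with the sign the same under all 15. The difference was 1.70 (limma adjusted p = 0.21) on the scanner's processed signals. It was also lost without the Dll1-high array (adjusted p = 0.16 by limma) or the Dll1-low array (0.14).

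Epcam (A_52_P447944, chr17:88048972-88049800, mm9), whose upstream sequence with 2 E-boxes is shown above, read 0.75 and 1.02 in Dll1-high and Dll1-low cells, -0.76 and -0.39 in KO and -0.89 and -0.42 in WT macrophages. Both CD24+CD29hi arrays again lay above all macrophage arrays. The difference was 1.50 (SE 0.21, 95% interval 0.98 to 2.02, limma adjusted p = 0.012), or 2.83-fold. On KO replicate 1 the reference spot read 261 against 727 to 923.5 on the other macrophage arrays. With the sample channel alone, an alternative chosen after the files were seen, the difference was 1.32 with a limma adjusted p of 0.16, and the call was kept under 8 of 15 alternatives. Without the Dll1-high or the Dll1-low array the limma adjusted p was 0.11 and 0.14.

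The 3 tight junction genes did not pass. On simulated data this fit called 1 of 67 genes given a log2 change of 1 and 38 of 67 given 2. Not passing, here and for Snai1 and Twist1 below, thus does not show equal levels. Cldn3 (A_55_P2183473, chr5:135463284-135463342, mm9), a barrier-forming claudin, read 3.71 and 3.54 in Dll1-high and Dll1-low cells, 3.04 and 2.94 in KO and 3.14 and 3.85 in WT macrophages. Its groups overlapped through WT replicate 2, and the difference was 0.38 (SE 0.29, 95% interval -0.33 to 1.09, limma adjusted p = 0.56). Its reference signal was not well above background on KO replicate 2 and WT replicate 2. The difference turned to -0.99 on the scanner's processed signals.

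Cldn7, a claudin also found along the lateral membrane of epithelial cells, has 2 probes. The brighter, A_55_P2158653 (chr11:69781255-69781314, mm9), read 0.00 in Dll1-high and 0.79 in Dll1-low cells, 0.31 and 0.36 in KO and 0.72 and 0.16 in WT macrophages. The CD24+CD29hi arrays lay at the lowest and the highest place of the 6, and the difference was 0.01 (SE 0.28, 95% interval -0.67 to 0.69, limma adjusted p = 0.99). The second, A_55_P2158663 (chr11:69778772-69778831, mm9), names only an Ensembl transcript and read 0.24, 0.13, -0.05, 0.16, 0.24 and -0.09 in the same order. It was not well above background on KO replicate 2 and WT replicate 2.

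Ocln encodes occludin, a membrane protein of tight junctions, and its main probe A_51_P486155 (chr13:101268529-101268588, minus strand, mm9) read 0.01 in Dll1-high and 0.44 in Dll1-low cells, 0.46 and 0.58 in KO and -0.36 and 0.44 in WT macrophages. Groups overlapped, with a difference of -0.06 (SE 0.31, 95% interval -0.83 to 0.72, limma adjusted p = 0.96). On KO replicate 1 the reference signal of this probe was not well above background. The second probe, A_55_P2055694 (chr13:101267384-101267443, mm9), read 0.21, 0.11, 0.43, 0.31, -0.13 and 0.32. Its sample signal was well above background on the Dll1-high, Dll1-low and KO replicate 1 arrays only, and its reference signal on 0 of 6 arrays, so its ratios carry little weight.

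Among the mesenchymal genes, Snai2 (A_51_P305547, chr16:14709361-14709420, mm9), which encodes the repressor Slug, ran against the others. It read 0.97 and 0.85 in Dll1-high and Dll1-low cells, -2.95 and -2.75 in KO and -1.89 and -2.60 in WT macrophages. The CD24+CD29hi arrays lay above every macrophage array by a wide gap, with a difference of 3.46 (SE 0.31, 95% interval 2.69 to 4.23, limma adjusted p = 0.0029), or 11.0-fold. The reference channel, rebuilt as for Cdh1, differed by -0.53 between the slides and the sample channel by 2.93. On WT replicate 1 the sample spot read 212, the lowest of the macrophage arrays, but the rebuilt sample value, 9.42, was the highest. The call was kept under 13 of 15 alternatives, with a limma adjusted p of 0.057 without the Dll1-high array and 0.057 with 4 group means.

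Zeb1 (A_52_P546635), a zinc finger and homeodomain repressor of Cdh1, went the other way. It read -2.35 and -1.93 in Dll1-high and Dll1-low cells, -0.16 and 0.40 in KO and 0.46 and 0.75 in WT macrophages. Every macrophage array lay above both CD24+CD29hi arrays, and the difference was -2.50 (SE 0.29, 95% interval -3.21 to -1.79, limma adjusted p = 0.0061), a 5.65-fold lower level. The reference channel alone differed by -0.42. The call was kept under 11 of 15 alternatives, and median centring in place of loess gave -1.53 with a limma adjusted p of 0.24. Without the Dll1-high or the Dll1-low array the limma adjusted p was 0.095 and 0.06.

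Vim (A_51_P392687, chr2:13504232-13504291, mm9) was bright on every array, with sample spot signals of 9046 to 51160.6 and no saturation of the sample signal. Its reference spots read 104128 and 84256.1 on the Dll1-high and Dll1-low arrays. They read 58312.7 to 74002.7 on KO replicate 2 and the WT arrays, and saturation of the reference signal was not examined. Its spot on KO replicate 1 was marked as an outlier by the scanner software and left out, so 5 arrays entered the fit. Vim read -2.09 and -1.54 in Dll1-high and Dll1-low cells, 0.03 in KO replicate 2, and -0.25 and 0.00 in WT replicates 1 and 2. The macrophage arrays lay above both others, and the difference was -1.74 (SE 0.24, 95% interval -2.35 to -1.13, limma adjusted p = 0.017), a 3.35-fold lower level in CD24+CD29hi cells. The call was kept under 7 of 15 alternatives, among them the fit without KO replicate 1, an array that held no Vim value. The limma adjusted p was 0.15 without the Dll1-high, 0.076 without the Dll1-low, 0.072 without the KO replicate 2 and 0.068 without the WT replicate 2 array. With median centring it was -0.70 (limma adjusted p = 0.82), since WT replicate 1 then read -3.08 in place of -0.25.

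That shift between loess and median centring was a feature of WT replicate 1. Loess raised it by 2.83 for Vim, 2.18 for Snai2, 2.07 for Zeb1, 1.56 for Epcam and 1.52 for Cldn7, against at most 0.55 for any member on the other 5 arrays. Without WT replicate 1 the differences between the cell types were close in size and the 5 calls stood: 3.68 for Snai2, 2.43 for Cdh1, 1.41 for Epcam, -2.47 for Zeb1 and -1.83 for Vim, with limma adjusted p-values of 0.00031, 0.006, 0.0063, 0.0057 and 0.011. In that fit 6577 of 31241 genes passed, against 2874 with all arrays, so that the calls stood adds little.

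The remaining factors did not pass. Snai1 (A_51_P165087, chr2:167368073-167368132, mm9), a zinc finger repressor of Cdh1, read -1.99 and -1.80 in Dll1-high and Dll1-low cells, -2.15 and -1.32 in KO and -1.27 and -1.25 in WT macrophages. The groups overlapped through KO replicate 1, where the sample signal was not well above background, and the difference was -0.40 (SE 0.30, 95% interval -1.14 to 0.34, limma adjusted p = 0.55). Twist1 (A_52_P20906, chr12:34644411-34644470, mm9), a helix-loop-helix factor, read -2.46 and -2.14, then -2.07 and -1.50 in KO and -1.17 and -2.01 in WT macrophages. The CD24+CD29hi arrays were the lowest 2 of the 6, but the gap to KO replicate 1 was small, and the difference was -0.62 (SE 0.31, 95% interval -1.37 to 0.14, limma adjusted p = 0.32). Its sample signal was not well above background on KO replicate 2. Snai1 and Twist1 turned to 0.12 and 0.02 with median centring and to 0.34 and 0.05 on the scanner's processed signals.

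**Figure D2:**
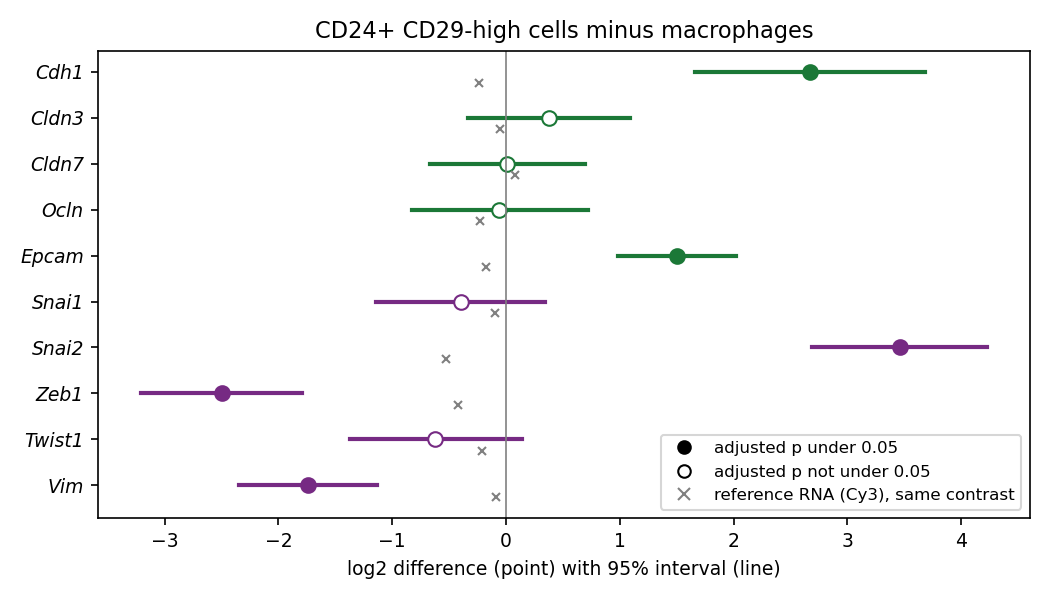
Difference in log2 ratio between the 2 CD24+CD29hi and the 4 macrophage arrays (x axis) for each gene (y axis), with the limma estimate as a circle and its 95% interval as a line, green for epithelial and purple for mesenchymal genes. Filled circles passed an adjusted p of 0.05. Grey crosses give the same contrast in the reference channel, rebuilt from the normalized ratio and the mean signal of both dyes. Snai2 (3.46), Cdh1 (2.67) and Epcam (1.50) lie to the right, Zeb1 (-2.50) and Vim (-1.74) to the left, and the crosses lie between -0.53 and 0.08.

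Wider lists of genes of the same functions gave the following in this comparison, against the 4.20% higher and 5.00% lower over all genes. Of 20 other tight junction genes, 5 were higher and 0 lower, with a median of 0.25. Inadl, a scaffold protein, differed by 3.44 (SE 0.38, limma adjusted p = 0.0055) and Ildr1, of tricellular junctions, by 2.13 (SE 0.22, limma adjusted p = 0.0042). Of 19 other adherens junction and desmosome genes, 7 were higher and 0 lower, with a median of 0.36, led by the desmosomal Perp (5.71) and by Cdh3, which encodes P-cadherin (5.39). Of 18 genes of the epithelial programme, 7 were higher and 1 lower, with Klf5 (3.88) and Grhl2 (3.17), transcription factors of epithelia, at the top. The lower one was Ehf, an epithelial ETS factor, which read 1.12 and 0.83 in CD24+CD29hi cells and 2.49 to 3.84 on the macrophage arrays, a difference of -2.19 (SE 0.40, limma adjusted p = 0.026).

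Other transcription factors linked to the transition passed in both directions. Of the 16 tested, Sox10 (2.02) and Sox9 (1.99) were higher, and Zeb2, the paralogue of Zeb1 (-3.74), and Id2, an inhibitor of helix-loop-helix factors (-3.22), were lower, with a median of -0.61. Zeb2 read -2.45 and -1.98 in CD24+CD29hi cells, 1.83 and 2.21 in KO and 0.52 and 1.56 in WT macrophages. Of 20 mesenchymal state genes 3 were higher and 2 lower, with a median of -0.30. The contractile genes Tagln (5.61) and Acta2 (5.26) were among the higher, and Acta2 also stands in the list of basal markers. S100a4, a calcium-binding protein that macrophages also carry, was lower by 4.11 on the log2 scale, at -4.11 and -3.78 in CD24+CD29hi cells against -0.11 to 0.52 in macrophages. Of 12 genes of the TGF-beta pathway, an inducer of the transition, Tgfb3, a ligand, was higher (1.61) and 0 were lower, and the co-receptor Tgfbr3 at 2.41 (SE 0.89, limma adjusted p = 0.18) did not pass.

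**Figure D3:**
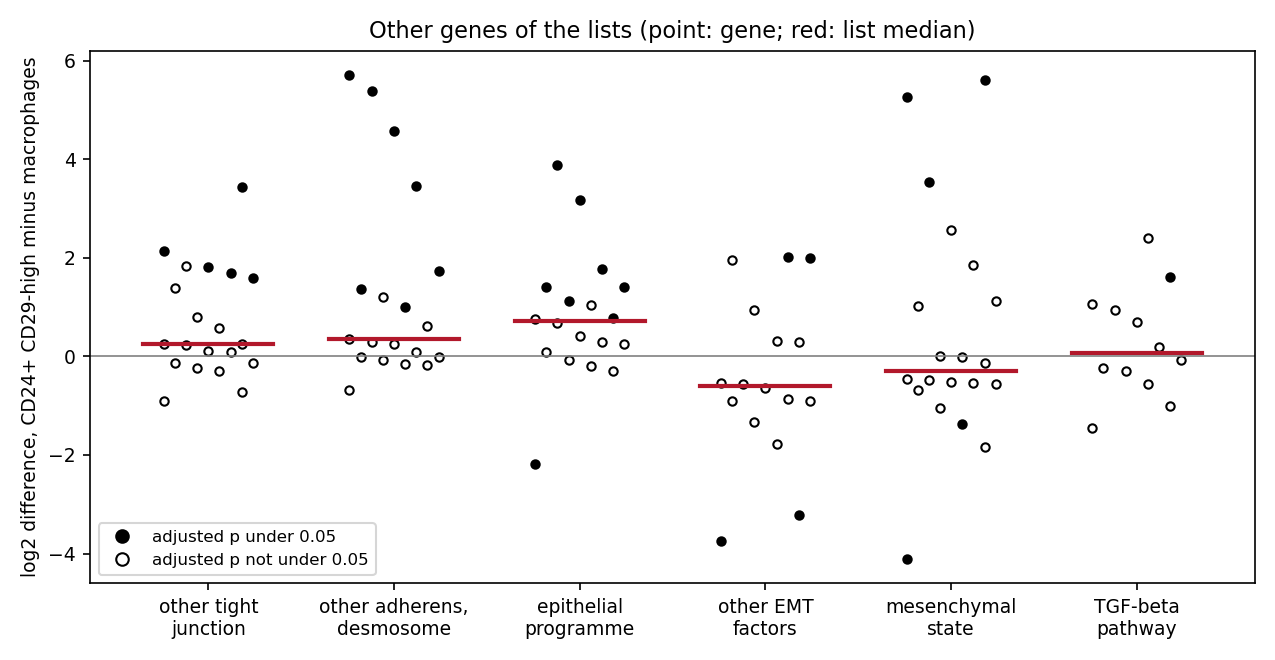
Difference in log2 ratio between CD24+CD29hi cells and macrophages (y axis) for the other genes of 6 lists (x axis), with 1 circle per gene, filled where limma's adjusted p was under 0.05, and the list median as a red line. The medians run from -0.61 for other transition factors to 0.71 for the epithelial programme, and the filled circles of both junction lists all lie above 0.

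The second comparison set Dll1-high against Dll1-low CD24+CD29hi cells, with 1 array each and so no test. Of the 10 members 0 differed by 2-fold or more, which 0.197% of 32032 genes did, 0.0937% as higher and 0.103% as lower in Dll1-high cells. Of the epithelial genes 3 of 5 and of the mesenchymal genes 4 of 5 were lower in Dll1-high cells, with medians of -0.28 and -0.32, while 56.0% of all genes were lower by any amount, with a median of -0.03. As a guide to technical error, the SD of this difference over the spots of the 399 probes spotted 10 times was 0.119 at the median and 0.25 at the 95th percentile. That covers spotting only, not the spread between mice or sorts. The percentile is taken across probes, so it is not a 95% limit for the difference of 1 gene.

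Cdh1, at 4.90 against 4.81, differed by 0.09, Snai2 by 0.13 and Cldn3 by 0.17, all under the 95th percentile of that spot SD. The SD of Cdh1 over its own 10 spots was only 0.0346, less than its difference. The sign of 2 of these did not hold: Cdh1 gave -0.04 on the processed signals and Cldn3 -0.05 in the sample channel alone. Snai1 differed by -0.19, also under that percentile. The largest member difference was that of the main Cldn7 probe, -0.79, from sample spot signals of 1188 in Dll1-high and 2067 in Dll1-low cells. The second Cldn7 probe gave 0.11, so the 2 probes disagreed, and their mean gave -0.34. Macrophage replicates of 1 genotype lay 0.05 (KO) and 0.55 (WT) apart on the main probe, less than the reporter states. Ocln gave -0.43 on its main probe, and -0.15 in the sample channel alone. On that probe its KO replicates lay 0.11 and its WT replicates 0.79 apart. Its second probe gave 0.09, over a reference signal not well above background on either array, which tells little of the main one.

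Of the others, Epcam was lower by 0.28 on the log2 scale in Dll1-high cells. Zeb1 differed by -0.41, Twist1 by -0.32 (-0.13 in the sample channel alone) and Vim by -0.54, each on its only probe. For comparison, macrophage replicates of 1 genotype lay 0.56 and 0.29 apart for Zeb1 and 0.57 and 0.84 for Twist1, KO and WT in that order, and the WT replicates lay 0.25 apart for Vim. The Zeb1 and Twist1 differences thus did not exceed the larger of these gaps, while Vim exceeded the 1 gap it has, after loess only. With median centring the WT replicates read -3.08 and -0.21 for Vim, farther apart than the reporter states, which then differed by -0.44. These gaps come from another cell type on another slide, so they are a rough guide only. Fibroblast markers were also lower in Dll1-high cells, 11 of 12 with a median of -0.54 and median levels of -0.78 and -0.31, as were 11 of 12 endothelial (median -0.34) and 11 of 14 luminal markers (median -0.24). Their part in the difference of Vim and the other members was not tested. In bulk samples fewer cells of a type and less RNA per cell cannot be told apart.

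**Figure D4:**
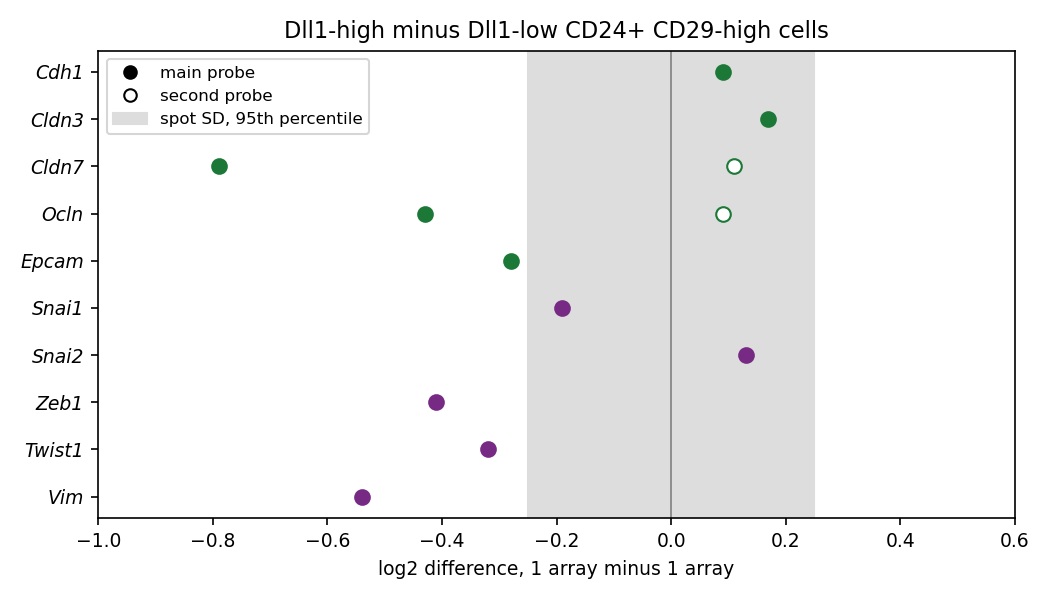
Difference in log2 ratio between the Dll1-high and the Dll1-low array (x axis) for each gene (y axis), green for epithelial and purple for mesenchymal genes, with filled circles for the main and open circles for the second probe. The grey band spans 0.25 to each side of 0, the 95th percentile across probes of the SD over replicate spots. It is not a limit for 1 gene. Cldn7 at -0.79 and Vim at -0.54 lie farthest from 0, and the second probes of Cldn7 and Ocln lie at 0.11 and 0.09, the latter over a dim reference.

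In the wider lists 0 of the junction genes and 2 of the mesenchymal state genes differed by 2-fold or more between the reporter states. Of 20 other tight junction genes 11 were higher and 9 lower, with a median of 0.02 and the claudin Cldn4 the lowest at -0.24. Of 19 adherens and desmosome genes 13 were higher, with a median of 0.15 and the desmosomal cadherins Dsc2 (0.53) and Dsg2 (0.48) at the top, and 13 of 18 genes of the epithelial programme were higher, with a median of 0.12. Among 16 other transition factors, Tbx3, a T-box factor, was the lowest at -0.83, from 1.70 in Dll1-high to 2.52 in Dll1-low cells. Among 19 mesenchymal state genes 12 were lower, with a median of -0.33. In that list Tagln was 2-fold or more higher (1.16) and Fn1, which encodes fibronectin, lower (-1.03), the latter at very low ratios of -4.64 and -3.60. Col1a1 was at -0.72, and 6 of the list's genes, Col1a1 among them, are also fibroblast markers.

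The third comparison set KO against WT macrophages. Of 24978 genes tested with limma 0 passed an adjusted p of 0.05, 32 had an unadjusted p under 0.05, and all 10 members had an adjusted p that rounded to 1. With this spread the test had little power: on simulated data of this spread it called 0 of the 66 genes that had been given a log2 change of 4. The median difference was 0.09 over the epithelial and -0.47 over the mesenchymal genes, against -0.10 over all genes. KO and WT arrays did not overlap for 2 of 5 epithelial genes, 1 in each direction, and for 3 of the 4 mesenchymal genes measured on all 4 arrays, all lower in KO, where 6.77% of all genes were higher and 13.7% lower without overlap, 20.5% in all. Vim is not counted, having 1 KO array.

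No epithelial gene passed in this comparison (limma). Cdh1 differed by 0.10 (SE 0.61, 95% interval -1.58 to 1.77), with 0.38 between the replicates numbered 1, which share a slide row, and -0.18 between those numbered 2. It turned to -0.57 without WT replicate 1 and to -0.29 without KO replicate 2. Its replicates lay 0.77 apart in KO and 1.32 in WT, more than the genotypes. Epcam differed by 0.09 (SE 0.37, 95% interval -0.92 to 1.10) and Cldn7 by -0.11 (SE 0.36, 95% interval -1.10 to 0.88). Cldn3 was lower on both KO arrays than on both WT arrays, at -0.51 (SE 0.39, 95% interval -1.58 to 0.57), with -0.10 in the first row and -0.91 in the second. Its reference signal was not well above background on either array of the second row, and the processed signals gave 0.10. Ocln was higher on both KO arrays, at 0.48 (SE 0.41, 95% interval -0.65 to 1.61), with 0.82 and 0.14 by row, and was 0.08 without WT replicate 1, 0.88 without WT replicate 2. At the closest, KO replicate 1 read 0.46 and WT replicate 2 read 0.44. Sample spots of this main probe were dim, 92 to 127 over a background of 63 to 65.5. Its reference signal on KO replicate 1 was not well above background, and the processed signals gave 1.84. Its second probe, with sample signal well above background on 1 of 4 macrophage arrays, gave 0.27, with 0.56 and -0.01 by row.

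Of the mesenchymal genes, Snai1, Snai2 and Zeb1 were lower on both KO than on both WT arrays. Snai2 differed by -0.60 (SE 0.40, 95% interval -1.69 to 0.48), with -1.06 in the first row and -0.15 in the second. Zeb1 differed by -0.48 (SE 0.38, 95% interval -1.52 to 0.55), with -0.62 and -0.35. Snai1 differed by -0.47 (SE 0.42, 95% interval -1.62 to 0.67), with -0.88 and -0.07, and by -0.06 without KO replicate 1. In all 3 the gap was larger in the first row. Without WT replicate 1 Snai2 gave -0.25, Zeb1 -0.63 and Snai1 -0.48.

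Twist1 overlapped, at -0.19 (SE 0.47, 95% interval -1.47 to 1.08), with -0.90 and 0.51 by row. Vim, with 1 KO array, differed by 0.16 (SE 0.45, 95% interval -1.22 to 1.54), and its levels of 0.03 against -0.25 and 0.00 hardly parted the genotypes. With median centring, which moved the median over all genes from -0.10 to 0.47, Snai1, Snai2, Zeb1 and Twist1 turned to 0.21, 0.46, 0.52 and 0.58. No direction for the mesenchymal genes is therefore shown between the genotypes. Of the fibroblast markers 11 of 12 were lower in KO, with a median of -0.54 against -0.10 over all genes. Their median level was 0.24 on WT replicate 1 but -1.26 on WT replicate 2, below the -0.87 and -0.86 of KO. Of the endothelial markers 12 of 12 were lower, with a median of -0.69 and median levels of 1.35 and 1.81 in KO, 2.29 and 2.31 in WT. Higher in KO were 12 of 15 macrophage markers, with a median of 0.51, and 9 of 10 lymphocyte markers, with a median of 0.59. Median levels of the macrophage markers were 2.83 and 2.99 in KO and 1.94 and 2.78 in WT. Those of the lymphocyte markers overlapped, at 2.29 and 1.39 in KO and 0.90 and 1.51 in WT. The part of these markers in the member values was not tested.

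**Figure D5:**
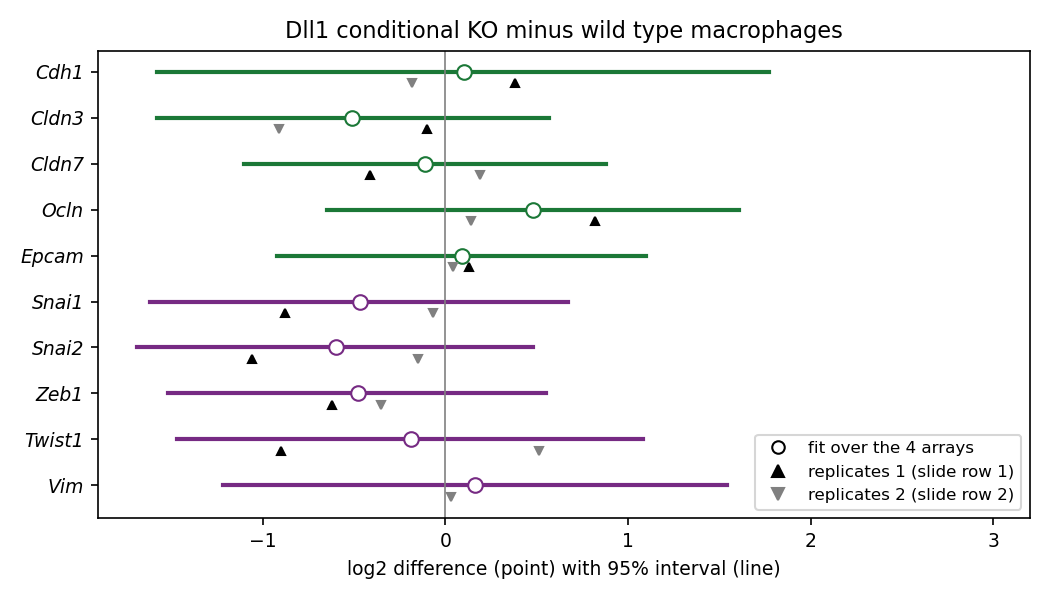
Difference in log2 ratio between KO and WT macrophages (x axis) for each gene (y axis), with the limma estimate over the 4 arrays as an open circle and its 95% interval as a line, green for epithelial and purple for mesenchymal genes. Upward black triangles are the difference between the replicates numbered 1 and downward grey triangles between those numbered 2. Every interval includes 0, and for Snai2 the triangles lie at -1.06 and -0.15.

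None of the wider lists had a gene past the threshold in this comparison (limma, adjusted over all 24978 genes). The median over all genes was -0.10, so more genes were lower than higher in KO whatever the list. Of 17 other tight junction genes tested 7 were higher and 10 lower in KO, and of 15 adherens and desmosome genes 3 were higher and 12 lower, with a median of -0.33. Cldn12 was the lowest of the first list at -1.22 (SE 0.46), with -3.21 and -2.35 in KO and -1.31 and -1.82 in WT macrophages. Of 16 other transition factors 12 were lower, with a median of -0.55, though Zeb2 was higher on both KO arrays, at 0.98 (SE 0.49). Of 20 mesenchymal state genes 16 were lower, with a median of -0.43. Their median level was 0.32 on WT replicate 1 but -1.15 on WT replicate 2, against -0.79 and -1.01 in KO. Sparc, a matrix protein, was the lowest of these at -1.41 (SE 0.66), with 0.90 on WT replicate 1 and -0.78 on WT replicate 2 against -1.36 and -1.34 in KO.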

How the data were processed

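RNA of the 6 samples was read on two-colour Agilent arrays of a single design. The members and gene lists were chosen with earlier results of these data known. Per the file headers, the spot signals used here are raw intensity readings, and the log ratio is the log10 of sample over reference after the software's own processing. The deposited value table gives log2 ratios that tracked it on every array (correlation at least 0.978, slope at most 1.01). The headers give Feature Extraction 11.0.1.1 for the CD24+CD29hi and 12.0.2.2 for the macrophage arrays, and the submitters' processing notes 11.0 for all.

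From these, median spot signals were corrected with normexp (offset 50) and loess within arrays (limma 3.58.1, version 1.17.8 of data.table, R 4.3.3), without spots marked as outliers (170 to 500 per array). Spots of a probe were averaged, and the probe of highest mean signal stood for a gene. Genes well above background on at least 2 arrays (1 of the 2 for the reporter states) were tested with limma, with p-values adjusted after Benjamini and Hochberg and a threshold of 0.05 (limma's prior degrees of freedom were 2.18 for genotype and 1.88 for cell type). The fits were tested on simulated data. Every probe of the members was named, and of each other list only the 2 genes of largest difference in each direction. The labels do not say that equal replicate numbers pair KO and WT, so the fit has no block. Median centring, the scanner's processed signals, the value table, another offset, other probe, filter and variance choices, each array left out and the sample channel alone were tried. Single-channel values were rebuilt after loess from the ratio and the mean signal of both dyes, the latter quantile-normalized between arrays. Promoter windows were searched for both strands of the E-box. Dyes were never swapped.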

Additional observations from a re-analysis of the deposited data

Results flagged for a closer look

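Among the 4 macrophage arrays, 2 member values lay far from the other 3 for the range of their gene. Snai1 read -2.15 on KO replicate 1, where its sample signal was not well above background. Ocln read -0.36 on WT replicate 1, on the main probe. Chance flags about 1 in 20 such groups, and no cause was tested.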

How the results depend on the processing

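Under the alternatives run, the 5 calls between cell types kept their sign but not always the threshold. A total of 1406 genes and 2 members passed with the scanner's processed signals, and as many with the deposited value table, 1001 and 2 with median centring, and 92 and 0 with 4 group means. Leaving out 1 array gave 361 to 6577 genes and 0 to 5 members, the lowest without the Dll1-high array (361 and 0) and the Dll1-low array (498 and 1), and 1504, 6577 and 1629 genes without KO replicate 2, WT replicate 1 and WT replicate 2. An arm left with 1 array is assumed to vary like the others. With median centring 92.1% of calls were higher in CD24+CD29hi cells, against 45.7% with loess, and the median over all genes moved from -0.04 to 0.19. Of the uncalled members, Cldn3 turned to -0.99, Snai1 to 0.34 and Twist1 to 0.05 with processed signals or the value table. Median centring turned Snai1 to 0.12, Twist1 to 0.02 and Ocln to 0.01, and offset 16 turned Cldn7 to -0.02. With 1 array left out Cldn7 ran from -0.38 to 0.40 and Ocln from -0.27 to 0.16.

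Between genotypes, 0 genes passed under any alternative. Cldn3 turned to 0.10 with processed signals or the value table, where Ocln was 1.84 and Snai1 -1.18. Median centring turned Cldn7 to 0.70, Snai1 to 0.21, Snai2 to 0.46, Zeb1 to 0.52 and Twist1 to 0.58, and the sample channel alone turned Cldn7 to 0.20 and Epcam to -0.43. With 1 array left out Cdh1 ran from -0.57 to 0.76, Cldn7 from -0.39 to 0.17, Epcam from -0.15 to 0.32 and Twist1 from -0.61 to 0.23. The replicate block left 0 genes past the threshold (142 at an unadjusted p under 0.05 by limma), with Snai2 at -0.60 and an adjusted p of 0.96. The deviations of KO and WT replicates correlated at 0.595 over genes, and only 2 pairs exist. Vim had no value on KO replicate 1, so 1 left-out fit gave it a value there.

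Between reporter states, 999 genes differed by 2-fold with processed signals or the value table and 131 with offset 16, against 63, and 0 members did under any of the 7 alternatives. Cdh1 turned to -0.04 with processed signals or the value table and Cldn3 to -0.05 with the sample channel alone, where Ocln was -0.15, Twist1 -0.13 and Snai1 -0.05. The causes were not tested.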
